A study of Mus musculus with 4 samples.

Results

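The genes that carry dietary sugar from the brush border into the intestinal epithelial cell were followed in mouse small intestinal (SI) organoids with and without a miR-181a-5p mimic. They are the disaccharidase genes Sis, Mgam, Lct and Treh, the transporter genes Slc5a1, Slc2a5, Slc2a2 and Slc2a1, and Khk, which encodes the first enzyme of fructose breakdown. The 9 genes are 9 of 55487 listed in the count table, and all 9 were among the 17155 genes with enough counts to be tested. They were chosen by function and with their measured values in this contrast known, Slc2a5 being the gene that was higher with the mimic. Their values are therefore given as a description and carry no p-value.

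The organoids were grown from mouse intestinal crypts in IntestiCult growth medium. They were infected with a lentivirus that expresses a miRNA mimic control or the miR-181a-5p mimic, and puromycin at 2 μg/ml selected the infected cells in both groups. The experiment had 2 mimic control libraries (replicates 1 and 2) and as many that received the miR-181a-5p mimic (replicates 3 and 4), and the question was how additional miR-181a-5p changes the transcripts of the intestinal epithelium. The labels do not say whether replicates were separate infections, animals or cultures, so p-values given for other genes measure only the spread between these libraries, which may be technical. The strain, age and sex of the mice that gave these crypts are not given in the sources used here. Each lentiviral population was selected and cultured before RNA was taken, so any difference between populations that arose then cannot be told apart from an effect of the mimic. The labels describe poly(A) selection and the supplemental methods a depletion of ribosomal RNA, and the mature miRNA itself was not measured in these libraries. The paper assessed miR-181a-5p by qPCR in mouse SI organoids with the mimic or its control.

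Sucrose, starch fragments, lactose and trehalose cannot cross the epithelium until glycosidases anchored in the brush border have split them to single sugars. Glucose and galactose then enter the enterocyte with sodium through SGLT1, fructose enters by facilitated diffusion through GLUT5, and the sugars leave at the basolateral side through GLUT2. Part of the fructose is broken down within the enterocyte, where ketohexokinase traps it as fructose 1-phosphate before it is split further. Most of these genes are used as signs of a mature absorptive cell, and several of them are known to respond to the sugar in the lumen.

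The sequence delivered by the mimic and the only members whose transcripts match all of bases 2 to 8 are shown first, because a miRNA lowers mRNAs that pair with its seed. The mature miR-181a-5p is printed from the RefSeq table (GRCm38.p6) with its seed, bases 2 to 8, in capitals, and the same sequence is encoded at chr1:137966468-137966490 by Mir181a-1 and at chr2:38852741-38852763 by Mir181a-2.
miR-181a-5p: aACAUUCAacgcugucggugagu
A match to bases 2 to 8 of the miRNA reads TGAATGT in a transcript, and it was sought on the transcript strand, in each gene's longest 3′ UTR and longest coding sequence (GENCODE release 21, GRCm38). Slc2a2 held 1 match at chr3:28729502-28729508 in its 3′ UTR of 3883 bases and Mgam held 1 match at chr6:40768567-40768573 in its 3′ UTR of 839 bases, both on the forward strand. The matches are in capitals below, with their flanks.
Slc2a2 3′ UTR: ttttatatggaTGAATGTgctttctatca
Mgam 3′ UTR: gtgtatgtgtgTGAATGTgtgtacacgtg
The other 7 genes had no such match in the 3′ UTR, among them Slc2a5 with a 3′ UTR of 938 bases, and none of the 9 had one in the coding sequence. The same string without its first letter was also present in Slc5a1, with 1 in the 3′ UTR and 1 in the coding sequence. Lct held 1 in the coding sequence, and Slc2a2 held 2 in the 3′ UTR, counting the match shown. For comparison, 19.1% of 12913 tested genes had a match in the 3′ UTR and 12.7% of 13099 had one in the coding sequence. A match is a description of these letters and not a measured site of binding.

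The libraries held between 31104884 and 38111731 expected counts, RSEM's estimate of the reads from each gene. Libraries of a group were compared and were not copies of each other, since the chi-square per degree of freedom between them was 34.02 for the controls and 18.42 for the mimic. The transcripts were those of epithelium: Epcam, the epithelial adhesion molecule, 1 of 7 epithelial markers of which none was called, stood at 634 and 620 TPM in the controls and at 615 and 713 TPM with the mimic (TPM is the length-normalized abundance that the authors deposited, with equal totals across libraries). Of the mesenchymal markers Col1a2 and Col3a1 were at 0 in every library, as were the endothelial markers Cdh5 and Kdr, and leukocyte Ptprc had at most 5 counts. Some other genes of these 3 lists were detected at low counts in every library, with 61 and 29 in controls and 37 and 50 in mimic libraries for Pdgfrb, 72 and 58 against 51 and 55 for Cd68, and 10 and 8 against 11 and 27 for Pecam1, and none of these was called. Between the groups, 101 genes were called higher and 253 lower with the mimic, at an adjusted p under 0.05 and a fold change of at least 2 (quasi-likelihood test of edgeR, Benjamini-Hochberg adjustment), which is 2.06% of the genes tested. The median log2 fold change of all tested genes was -0.01.

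Before the groups are compared, the 2 control libraries need a word, because they differed for these genes in 1 direction. All 9 genes had a higher normalized CPM (counts relative to a library size adjusted by TMM factors) in control replicate 2 than in control replicate 1, with a median log2 difference of 0.40, whereas 49% of all tested genes did and their median difference was -0.01. Lct was the widest apart, by 1.03 on the log2 scale, followed by Treh at 0.89, Slc2a1 at 0.78 and Slc2a5 at 0.72, and Khk was the closest at 0.13. The same order of the 2 controls was seen in 15 of 18 enterocyte markers and 6 of 6 markers of the proximal small intestine, and in 0 of 4 Paneth cell, 0 of 3 enteroendocrine cell and 0 of 3 tuft cell markers. The mimic libraries did not differ in this manner, since 4 of the 9 genes were higher in replicate 4 than in replicate 3. In bulk libraries such as these, fewer cells of a type and less RNA per cell cannot be told apart.

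Read against that spread, 1 of the 9 genes had groups further apart than the libraries within them. Slc2a5 passed both thresholds in the higher direction and no member did in the lower direction, where 0.589% of all tested genes were called higher and 1.47% lower. Nothing is read from this count, because the genes were chosen on the same contrast. The groups did not overlap for Slc2a5 and Lct, both higher with the mimic, and overlapped for the other 7 genes. Among all tested genes the groups did not overlap with the mimic higher in 28.9% and with the mimic lower in 29.5%. The median log2 fold change of the 9 genes was 0.05, with a range from -0.43 for Treh to 2.06 for Slc2a5. Slc2a5, the only member within the thresholds, had a 4.17-fold difference, and the next gene by fold, Lct, had a 1.61-fold difference.

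**Figure D1:**
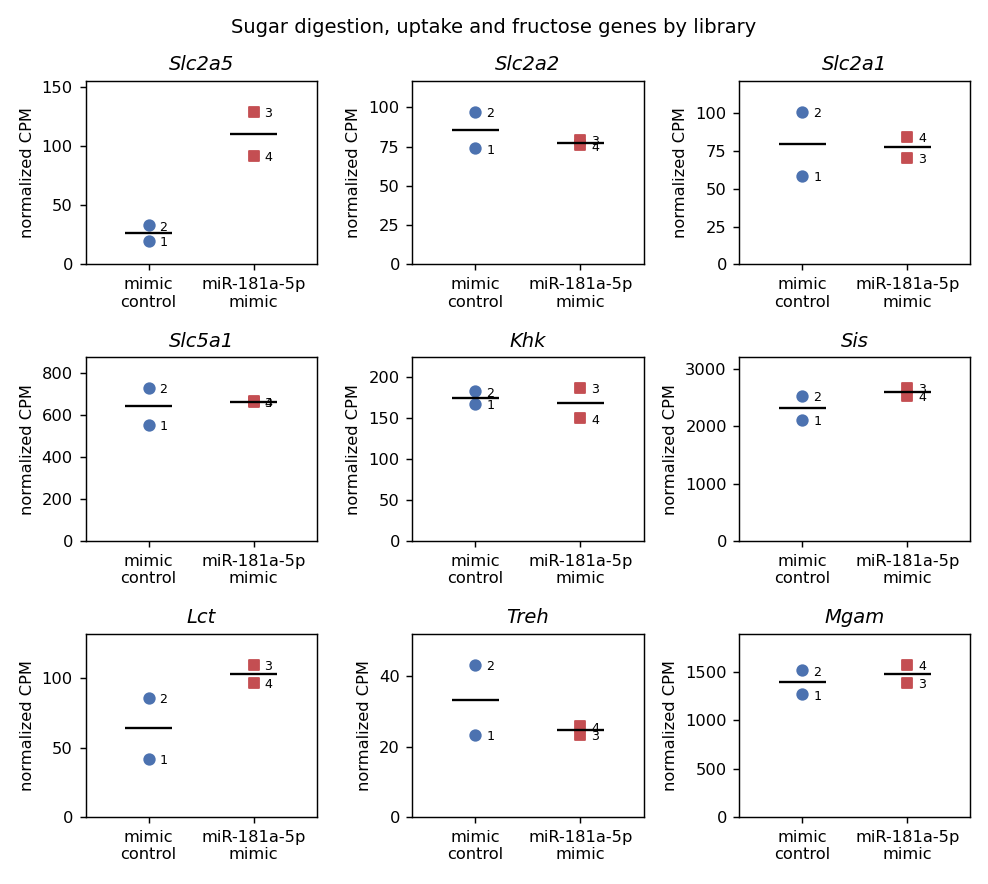
Normalized CPM (linear axis from 0) of the 9 genes in each library, with mimic control libraries as blue circles, miR-181a-5p mimic libraries as red squares, the replicate number beside each point and a bar at the group mean. Slc2a5 is the gene whose mimic libraries, at 129 and 91.5, lie far above the controls at 20 and 32.9, and in every panel control 2 lies above control 1.

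Among the disaccharidases, Sis encodes sucrase-isomaltase, which splits sucrose and the branch points of starch fragments (chr3:72888557-72967863, reverse strand, GRCm38). It had 2117 and 2532 normalized CPM in controls and 2666 and 2527 in mimic libraries, so that the lower mimic library lay just under the higher control. The log2 fold change was 0.16 (SE 0.15), of the same size as its error. Mgam, which encodes maltase-glucoamylase, the enzyme that releases glucose from the ends of starch fragments (chr6:40628831-40769123, forward strand), had 1270 and 1517 CPM in controls and 1391 and 1577 in mimic libraries. The groups overlapped, and the log2 fold change was 0.09 (SE 0.14). Mgam is also 1 of the 2 members with a match to bases 2 to 8, shown above, and its mean was not lower with the mimic.

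Lct encodes lactase, the enzyme that splits lactose (chr1:128284756-128328318, reverse strand). Its controls stood at 42.3 and 86.2 CPM and its mimic libraries at 110 and 96.8. Both mimic libraries were above both controls, but the gap from the higher control to the lower mimic library was small beside the gap between the controls. The log2 fold change was 0.69 (SE 0.28) and the gene was not called. It was 0.25 without control replicate 1 and 1.29 without control replicate 2, and in the latter fit Lct passed both thresholds. Treh encodes trehalase, which splits trehalose (chr9:44673233-44686305, forward strand), and went the other way in its mean, with 23.4 and 43.2 CPM in controls and 23.4 and 25.8 in mimic libraries. Control replicate 2 alone stood apart, and the log2 fold change of -0.43 (SE 0.25) became 0.08 without it. The Treh gene touches the end of Phldb1, a protein-coding gene on the opposite strand, only at its last bases. Phldb1 starts at 44686304 and Treh ends at 44686305. Expected counts of Treh were whole numbers in all 4 libraries, as they are when no read is divided among genes.

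The make-up of the disaccharidase transcripts was alike in all libraries. Of the summed TPM of the 4 genes, which was 677 and 833 in controls and 841 and 907 in mimic libraries, Sis took 72.7% and 71.2% in controls and 74.4% and 71.3% in mimic libraries. Mgam took between 21.4% and 24.6%. Lactase and trehalase transcripts were minor in every library. The ratio of Lct to Treh in TPM was 0.545 and 0.638 in controls and 1.51 and 1.2 in mimic libraries. This ratio, taken within each library, had closer controls than either gene alone. It pairs the uncalled members with the highest and the lowest log2 fold change, 0.69 and -0.43, so it restates those values and is no separate result. The groups overlapped for Treh.

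Slc5a1 encodes SGLT1, which brings glucose and galactose into the cell with sodium at the apical membrane (chr5:33104219-33162870, forward strand). It had 555 and 730 CPM in controls and 664 and 666 in mimic libraries. Both mimic libraries fell between the 2 controls and were nearly equal to each other, with a log2 fold change of 0.05 (SE 0.14).

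Slc2a5 encodes GLUT5, the fructose transporter of the apical membrane (chr4:150119283-150144169, forward strand). Its expected counts were 767 and 1021 in controls and 4042 and 3256 in mimic libraries. In normalized CPM these were 20 and 32.9 against 129 and 91.5, with means of 26.5 ± 9.15 (SD, n = 2) and 110 ± 26.6 (SD, n = 2). The lowest mimic library was above the highest control, and mimic replicate 3 was the highest of the 4. This is a log2 fold change of 2.06 (SE 0.25), or 4.17-fold. It ranged from 1.74 without control replicate 1 to 2.47 without control replicate 2. Ordered by log2 fold change over all tested genes, Slc2a5 was number 63 from the top and number 42 of the 101 genes called higher. Its counts were whole numbers in all 4 libraries, as they are when no read is divided among genes.

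Slc2a2 encodes GLUT2, which carries glucose, galactose and fructose across the basolateral membrane (chr3:28697903-28731359, forward strand). It had 74.0 and 97.2 CPM in controls and 79.4 and 75.7 in mimic libraries. The mimic libraries lay within the range of the controls, near its lower end. The log2 fold change was -0.14 (SE 0.14), also small beside the difference between the controls, and Slc2a2 is the other member with a match to bases 2 to 8. Slc2a1 encodes GLUT1, a widely expressed glucose transporter that is common in dividing cells (chr4:119108711-119137983, forward strand). It had 58.7 and 101 CPM in controls and 70.5 and 84.3 in mimic libraries, so that the controls enclosed the mimic libraries, and the log2 fold change was -0.04 (SE 0.23). Expected counts of Slc2a1 and Mgam were not whole in any library, which means that RSEM divided some reads between them and other transcripts.

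The transporters were also compared within each library, which does not depend on the scaling between libraries. Slc2a5 took 13.1% and 14.5% of the summed TPM of 12 Slc2a genes in controls and 43.4% and 35.2% in mimic libraries. Slc2a2 took 39.0% and 35.3% against 25.8% and 25.3%, and Slc2a1 took 32.2% and 39.3% against 23.4% and 29.6%. GLUT5 transcripts thus went from the smallest of these 3 shares to the largest in both mimic libraries, which restates the rise for which Slc2a5 was chosen. The summed TPM of the 12 genes was 87 and 126 in controls and 147 and 150 in mimic libraries, and the TPM of Slc2a2 and Slc2a1 overlapped between the groups.

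**Figure D2:**
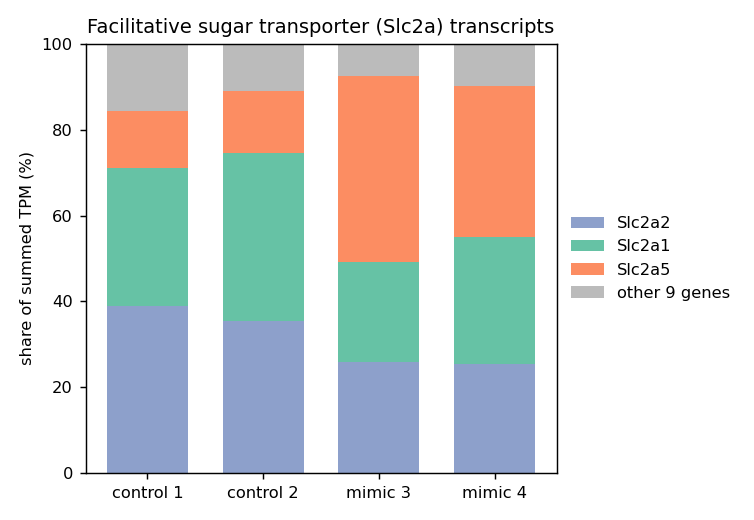
Share (%) of the summed TPM of 12 Slc2a (facilitative sugar transporter) genes that each gene takes, as stacked bars for the 4 libraries. The Slc2a5 segment is 13.1% and 14.5% in controls and 43.4% and 35.2% in mimic libraries, and the other 9 genes together remain the smallest or next to smallest segment.

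Against the other genes of sugar uptake, the ratio of Slc2a5 to Slc5a1 in TPM was 0.0698 and 0.0836 in controls and 0.324 and 0.246 in mimic libraries. The ratio to Slc2a2 was 0.336 and 0.410 in controls and 1.68 and 1.39 in mimic libraries. The ratio to Vil1, which encodes the brush border protein villin, was 0.0446 and 0.0634 in controls and 0.268 and 0.188 in mimic libraries. In each of these ratios the 2 controls differed less from each other than from either mimic library, and both mimic libraries lay above them. As Slc2a5 was chosen for its rise in this contrast, these ratios restate that rise.

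Khk encodes ketohexokinase, which phosphorylates fructose (chr5:30921431-30931248, forward strand). It had 167 and 182 CPM in controls and 186 and 149 in mimic libraries, and the mimic libraries enclosed the controls. Its log2 fold change was -0.06 (SE 0.12). The ratio of Slc2a5 to Khk in TPM was 0.0486 and 0.0723 in controls and 0.252 and 0.225 in mimic libraries. Slc2a5 was chosen for its rise in this contrast and Khk differed little, so this ratio restates that rise and is no separate result.

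Length-normalized levels allow the genes to be ordered. In the controls the mean TPM was 543 for Sis, 243 for Khk, 190 for Slc5a1 and 179 for Mgam, then 39.2 for Slc2a2, 38.7 for Slc2a1, 20.9 for Treh, 14.8 for Slc2a5 and 12.6 for Lct. Neighbours whose ranges overlapped were Slc5a1 and Mgam, Slc2a2 and Slc2a1, Treh and Slc2a5, and Slc2a5 and Lct, so the order within these pairs is not fixed by 2 libraries. With the mimic the first 4 genes kept their order, at 636, 244, 206 and 201 TPM. Slc2a5 came next at 58.3 TPM, above Slc2a1 at 39.4 and Slc2a2 at 38.0, and its range of 52.9 to 63.8 did not overlap with either neighbour. Lct followed at 21.1 and Treh at 15.7. Slc2a5 thereby moved from position 8 to position 5 of 9, and the step from the group led by Sis to the other 5 genes was present in both groups.

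**Figure D3:**
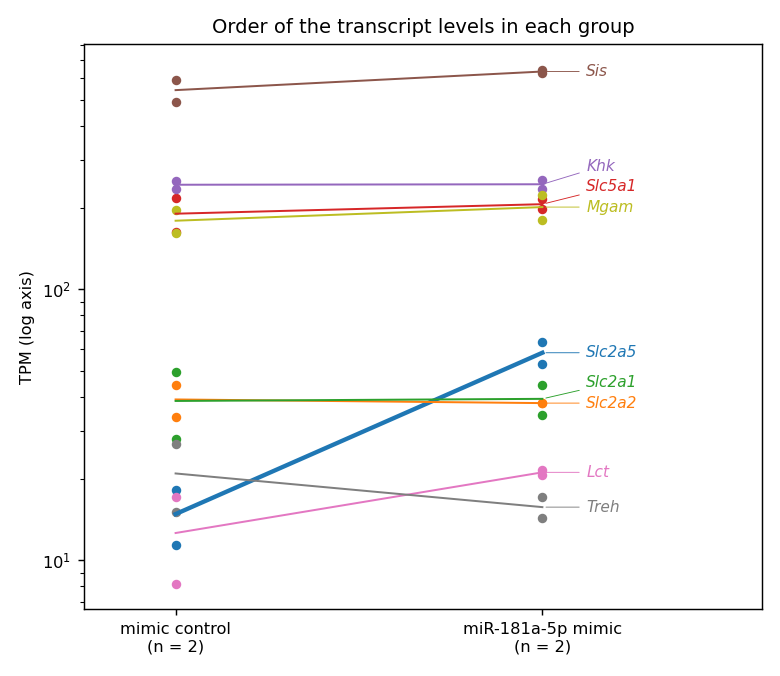
TPM (log axis) of the 9 genes in the mimic control and miR-181a-5p mimic groups (n = 2 each), with a point for each library and lines that join the group means. The thick line of Slc2a5 goes from 14.8 to 58.3 TPM and crosses those of Treh, Slc2a2 and Slc2a1, while the lines of Sis, Khk, Slc5a1 and Mgam stay above it in their order.

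The rest of the pathway was described from lists of 55 further genes in 8 groups, of which 54 were in the table and 45 were tested. Of these 45, 0 were called higher and 1 was called lower, beside 2.06% of all tested genes. At an adjusted p under 0.05 alone, 2 were higher and 1 was lower, beside 3.57% of all tested genes. At an unadjusted p under 0.05 the numbers were 13 higher and 5 lower, beside 4250 of the 17155 genes tested. The log2 fold change was above 0 in 27 and below 0 in 18, with a median of 0.05.

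In fructose breakdown, none of 8 genes was called and 6 had a log2 fold change above 0, with a list median of 0.37. Tkfc encodes triokinase, which phosphorylates the glyceraldehyde released from fructose 1-phosphate, and had 194 and 276 TPM in controls against 377 and 322 in mimic libraries. The groups did not overlap, but the difference did not pass the test (log2 fold change 0.51, SE 0.18, adjusted p = 0.146, edgeR). G6pc, which encodes the catalytic subunit of glucose-6-phosphatase, the last step of glucose release, rose from 13.8 and 14.6 TPM to 31.3 and 23.6. Its log2 fold change was 0.90 (SE 0.17, adjusted p = 0.0403, edgeR), short of the 2-fold threshold. The adjusted p was 0.0829 without mimic replicate 3, with a log2 fold change of 0.61, and it was also above 0.05 without a filter on low counts (0.0922) and in the 3 fits on TPM (0.0989, 0.109 and 0.314).

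No other transporter was called. Of the 9 other Slc2a genes, 5 were tested. Their log2 fold changes ran from -0.14 to 1.53, with 2 above 0, 3 below and a median of -0.03. The 2 most abundant were Slc2a9, a urate transporter at 7.96 TPM in the controls and 7.23 with the mimic, and Slc2a8 at 3.15 and 2.76. Slc2a7, the next gene to Slc2a5 on chromosome 4 and a relative of it, differed by -0.03 on the log2 scale (SE 0.26, adjusted p = 0.955, edgeR). The fructose transporter and its neighbour in the same family therefore had unlike fold changes. Of the 6 other sodium-coupled transporter genes tested, 4 had a log2 fold change above 0 and 2 below, with a median of 0.43. The 2 most abundant were Slc5a9 and Slc5a3. Slc5a9, which encodes SGLT4, had 22.8 and 22.8 CPM in controls and 14.0 and 20.7 in mimic libraries (adjusted p = 0.234, edgeR). Slc5a3, the myo-inositol transporter, had a log2 fold change of 0.00 (SE 0.12, adjusted p = 0.997, edgeR). Slc5a4b, a relative of SGLT1 outside the rule for named genes that was noticed after its values were seen, had 47 and 55 counts in controls and 301 and 132 in mimic libraries. Its log2 fold change was 2.15 (SE 0.47, adjusted p = 0.0537, edgeR), at a level of at most a few TPM.

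The sodium gradient that drives SGLT1 is made by the sodium pump, and none of 3 pump genes was called. Atp1b1, a beta subunit, stood at 911 TPM in the controls and 816 with the mimic (log2 fold change -0.13, SE 0.13, adjusted p = 0.567, edgeR). None of 5 tested glycosidases of other sites was called, and the most abundant were Ganab, which trims glycans in the endoplasmic reticulum, at 100 and 110 TPM, and Glb1, the lysosomal β-galactosidase, at 67.2 and 67.7 TPM. The pancreatic amylase genes Amy2a5 and Amy2b were at 0 in all libraries. None of 5 genes of galactose breakdown was called, with Galm, the mutarotase, at 69.4 and 76.2 TPM (adjusted p = 0.690, edgeR).

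The only pathway gene called was Txnip, a target of the carbohydrate response factor that encodes an arrestin-like inhibitor of glucose uptake. It fell from 600 and 486 TPM in the controls to 218 and 277 TPM with the mimic. The groups were far apart and the log2 fold change was -1.27 (SE 0.15, adjusted p = 0.0101, edgeR). The transcript had no 7-base seed match in its 3′ UTR or coding sequence, and its 3′ UTR held 1 match without the first letter. Arrdc4, its relative and another target of the same factor, differed by -0.36 (SE 0.11, adjusted p = 0.110), and Mlxipl, which encodes the carbohydrate response factor ChREBP, stood at 233 and 192 TPM in controls and 185 and 168 in mimic libraries (-0.29, SE 0.14, adjusted p = 0.234). Arrdc4 and Mlxipl each held 1 match to bases 2 to 8 in the 3′ UTR. So did Mlxip, another gene of this list, whose log2 fold change was 0.00. The part of these matches was not tested. Slc2a5 and Txnip, both known to be activated by ChREBP, had opposite directions in these libraries, and the part of ChREBP in either was not tested.

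**Figure D4:**
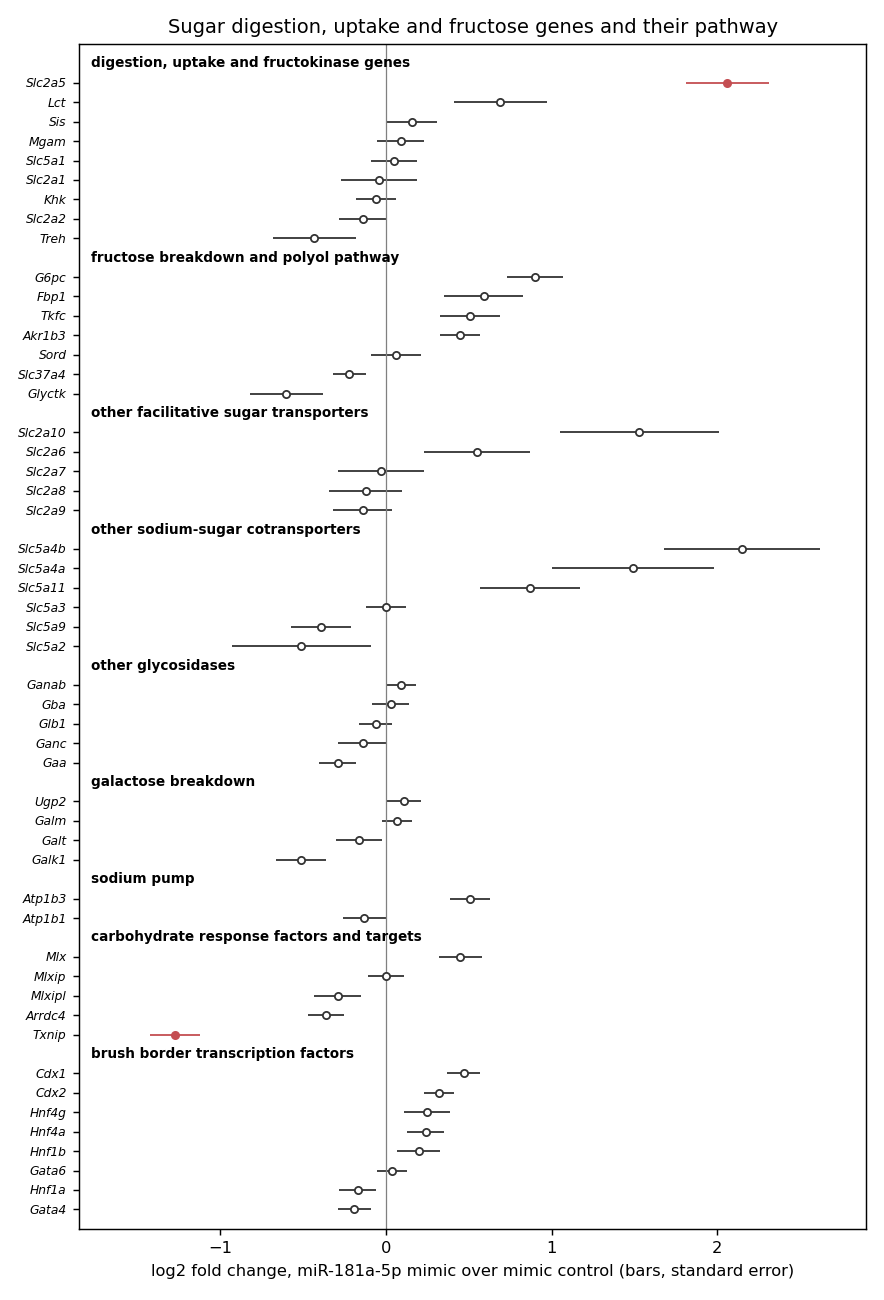
Log2 fold change of the miR-181a-5p mimic over the mimic control with its standard error for the 9 genes and 42 of the 45 tested genes of the 8 pathway lists, filled red where a gene passed both thresholds. Slc2a5 at 2.06 and Txnip at -1.27 are the only filled points, and Slc5a4b at 2.15 has the widest bar among the genes that lie as far out as Slc2a5.

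Of the 8 transcription factors of the brush border, none was called and 1, Cdx1, rose at an adjusted p under 0.05 but by less than 2-fold. This homeobox factor of the intestinal epithelium had 69.4 and 64.8 TPM in controls and 96.1 and 98.1 in mimic libraries (log2 fold change 0.47, SE 0.10, adjusted p = 0.0477, edgeR). The adjusted p was 0.211 without mimic replicate 3 and 0.074 without mimic replicate 4, with log2 fold changes of 0.43 and 0.52. It was also above 0.05 with the legacy quasi-likelihood test (0.0516), with upper-quartile factors (0.0628), without a filter on low counts (0.106) and in the 3 fits on TPM (0.123, 0.135 and 0.295). Hnf4a, a nuclear receptor of enterocytes, stood at 217 and 229 TPM against 267 and 287 (log2 fold change 0.24, SE 0.11, adjusted p = 0.217), and Cdx2 at 74.5 and 74.9 against 92.4 and 103 (0.32, SE 0.09, adjusted p = 0.0902). For both the 2 libraries of each group were close together and the groups did not overlap.

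Since these factors are known to act on digestive genes, the promoters of the 9 genes (RefSeq, GRCm38.p6, 250 bases before to 50 after the start) were searched on both strands for short motifs. The motifs were TTTATG for CDX factors, in 11.9% of all 32851 promoters, CACGTG for the E-box of the carbohydrate response element, in 7.15%, GTTAAT for HNF1, in 7.1%, and AGATAA for GATA factors, in 11.2%. The windows below, in the direction of the gene, have the motif or its reverse complement in capitals. They show the CDX matches of Sis (chr3:72967889-72967918) and Lct (chr1:128328332-128328361), both on the reverse strand, and the E-box matches of Khk (chr5:30921476-30921505), Slc5a1 (chr5:33104064-33104093) and Mgam (chr6:40628688-40628717), on the forward strand.
Sis: gtgcaataaaacTTTATGagtagtcaatat
Lct: cttggctgtgctCATAAAgtcaggattcct
Khk: agcgttccccgtCACGTGacaccgttaatc
Slc5a1: ccttttctgcctCACGTGggactccgtggc
Mgam: ttttattatgaaCACGTGagtattggttaa
HNF1 matches were present in Khk and Sis, and GATA matches in Lct and Mgam. The windows of Slc2a5, Slc2a2, Slc2a1 and Treh held none of these 4 letter strings, so the gene with the largest fold change shared none of them with the 5 genes shown. A match is a description and not a site, and its absence says only that the letters are not in this window.

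Of the nearest tested genes on each side of the 9, only 1 passed the test. Gpr157, 13.4 kb from Slc2a5, had 10.8 and 12.2 CPM in controls and 7.47 and 5.25 in mimic libraries (log2 fold change -0.86, SE 0.20, adjusted p = 0.0652, edgeR), so neither neighbour of Slc2a5 was higher with it. Mcm6, a replication gene 3.27 kb from Lct, differed by 0.20 (SE 0.10, adjusted p = 0.248), and Ubxn4, on its other side, by 0.04 (SE 0.09, adjusted p = 0.801). The exception was Mgam2-ps, annotated 9.59 kb from Mgam as a relative of it, which fell from 69.3 and 68.9 CPM to 30.7 and 28.3. Its log2 fold change was -1.23 (SE 0.10, adjusted p = 0.00399, edgeR) while that of Mgam was 0.09. Expected counts of both were not whole in all 4 libraries, and how reads that match both copies were divided was not tested.

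Markers of cell types and regions that moved with the groups are given beside these results, and their part in them was not tested. Of 18 enterocyte markers 0 were called higher and 1 was called lower, with 15 log2 fold changes below 0 and a median of -0.27. Of all tested genes 0.589% were called higher and 1.47% lower. Anpep, the brush border aminopeptidase N, fell from 656 and 448 TPM to 103 and 162 (log2 fold change -2.14, SE 0.23, adjusted p = 0.00812, edgeR). The summed TPM of the enterocyte list was 3558 and 4966 in controls and 2856 and 2888 in mimic libraries, so the groups did not overlap. Fabp1, the largest part of this sum in each library, had 948 and 1749 TPM in controls and 843 and 636 in mimic libraries. It was not called (adjusted p = 0.109, edgeR), and Fabp1 and Anpep carried much of the difference between these sums. Without control replicate 2, 9 of the 18 were below 0 and the median was -0.00. The 4 disaccharidase genes, which belong to the same cell, had summed levels that were not lower with the mimic. Sis took between 71.2% and 74.4% of that sum, which therefore says little about the others, and the mean of Treh was lower.

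Slc2a5 is expressed mostly in the proximal small intestine, so regional markers were set beside it. All 6 proximal markers had a log2 fold change below 0, with a median of -1.63. Of them 3 were called lower, beside 1.47% of all tested genes. Onecut2, a duodenal transcription factor, fell from 18.1 and 20.4 TPM to 8.78 and 8.98 (log2 fold change -1.18, SE 0.10, adjusted p = 0.00473, edgeR). Pdx1, a homeobox factor of the duodenum, fell from 5.04 and 7.72 TPM to 0.75 and 0.67 (-3.22, SE 0.29, adjusted p = 0.00499). Slc40a1, the iron exporter ferroportin, fell from 20.9 and 49.2 TPM to 0.14 and 0.64 (-6.69, SE 0.64, adjusted p = 0.00564). The summed TPM of the proximal list was 1145 and 2055 in controls and 941 and 756 in mimic libraries. Most of this sum was Fabp1, at 948 and 1749 TPM in controls and 843 and 636 in mimic libraries. Fabp1 was not called, and the sum says little about the other proximal markers. Without control replicate 2 all 6 were still below 0, with a median of -1.26. The 4 tested distal markers had log2 fold changes above 0, with a median of 1.39, and Cubn, the intrinsic factor receptor of the ileum, rose from 0.25 and 0.21 TPM to 1.63 and 3.86 (3.44, SE 0.37, adjusted p = 0.00812), although Fabp6, the defining bile acid binding protein of the ileum, had at most 1 count in any library. Slc2a5 and the proximal markers thus had opposite directions. Of the 3 proximal markers called lower, Onecut2 held 6 matches to bases 2 to 8 of the miRNA in a 3′ UTR of 14356 bases. Slc40a1 held 1 in the 3′ UTR and 2 in the coding sequence, and Pdx1 held 0 in both. Cubn, which rose, held 1 in the coding sequence. Whether these differences reflect the seed matches or the region of the intestine was not tested.

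Of the other marker lists, Lgr5 alone was called. Lgr5, the stem cell receptor, fell from 115 and 92.7 TPM to 26.9 and 54.1 (log2 fold change -1.38, SE 0.26, adjusted p = 0.0369, edgeR), but 3 of the 5 stem cell markers were above 0 and their summed TPM, 603 and 392 against 460 and 614, overlapped. Mcm2, a replication gene, rose by 0.51 (SE 0.10, adjusted p = 0.0369), and Spink4, a goblet cell gene, fell by 0.59 (SE 0.11, adjusted p = 0.0353), with none of the 5 proliferation and 5 goblet cell markers called. Summed levels of the Paneth cell list were 1019 and 479 TPM in controls and 537 and 616 in mimic libraries, and none of its 4 genes was called. None of the 3 enteroendocrine and 3 tuft cell markers was called, and no group difference was seen in their sums, at 233 and 154 against 187 and 190 TPM and at 5.03 and 3.19 against 3.76 and 5 TPM.

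Leaving out each library in turn showed which of the member values rest on 1 library. Slc2a5, Lct and Sis had log2 fold changes above 0 in all 4 fits, although that of Sis came down to 0.03 without control replicate 1. Without control replicate 2 all 9 genes were above 0 and the median of their log2 fold changes was 0.27. Without control replicate 1, 3 of 9 were above 0 and the median was -0.13. The 6 other differences changed direction between these fits. Slc2a1 lay between -0.39 and 0.40, Slc5a1 between -0.14 and 0.27 and Slc2a2 between -0.33 and 0.07. Khk lay between -0.22 and 0.09, Mgam between -0.04 and 0.23 and Treh between -0.82 and 0.08. A constant direction is no separate result for Slc2a5, which was chosen for its rise in the libraries that these fits share. The groups of Sis overlapped, so its direction is not fixed by these libraries either.

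**Figure D5:**
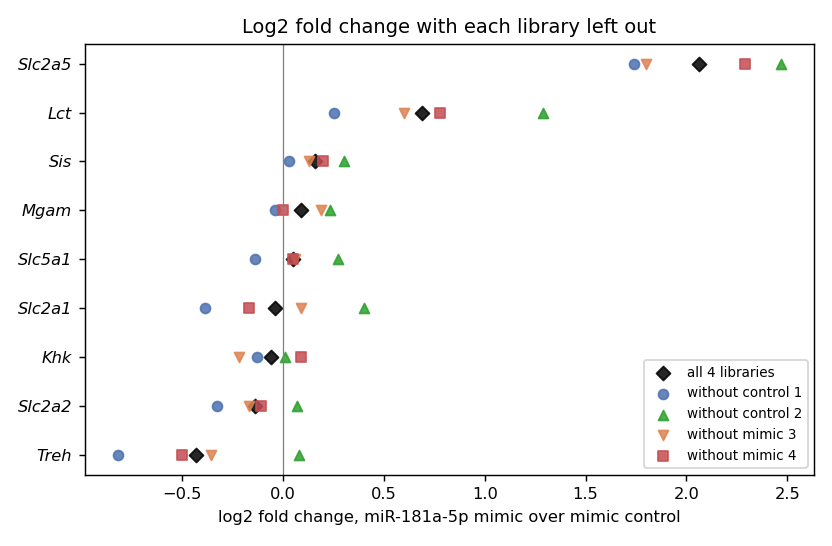
Log2 fold change of the miR-181a-5p mimic over the mimic control for the 9 genes with all 4 libraries (black diamonds) and with each library left out (colours and shapes by library). Slc2a5 stays between 1.74 and 2.47, and 8 of the 9 genes have their highest value without control 2.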

How the data were processed

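RNA-seq data of mouse SI organoids were analysed, with replicates 1 and 2 carrying the miRNA mimic control and replicates 3 and 4 the miR-181a-5p mimic. According to the submitters' processing notes the reads were trimmed with Trimmomatic and quantified with RSEM on GRCm38, and the authors deposited unnormalized expected counts and TPM per gene. Tool versions and the transcript annotation are not given in the sources used here. Of the columns in each deposited file, 3 matched no sample and were not used. The thresholds of the authors' own edgeR analysis (q-value under 0.05, fold change 2 or more) were kept.

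Expected counts were rounded, filtered with filterByExpr, scaled by TMM factors and fitted in edgeR 4.0.16 (R 4.3.3) by glmQLFit and glmQLFTest. P-values of 17155 genes were adjusted by Benjamini-Hochberg. Standard errors (SE) were obtained as the absolute log2 fold change over the root of F. The steps were run on simulated counts with independent libraries and the same dispersion for every gene. Such counts lack the shared difference between the controls, so this checks the code and not the calls made here. With 2 libraries a group, depth (31104884 to 38111731 counts) limits precision less than the spread between libraries (common BCV 0.13), and an exact permutation test of 1 gene cannot go below p = 0.333. Symbols were matched for 55141 of 55487 gene identifiers and coordinates (GENCODE release 21) for 55227. Gba3 was not matched.

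The 9 genes, the 8 pathway lists and the 13 marker lists were chosen with earlier results of these data known. Beside the 9, the text names each pathway gene at an adjusted p under 0.05, the 2 most abundant of each pathway list, each marker at an adjusted p under 0.05 (or the 2 most abundant), and the nearest tested gene on each side of a member. Some genes that this rule names are not reported here. Arrdc4, Slc5a4b, Amy2a5, Amy2b, Fabp1, Fabp6 and the markers at or near 0 were added. Alternatives were edgeR's exact, likelihood-ratio and legacy quasi-likelihood tests, DESeq2 1.42.0, RLE, upper-quartile and no factors, no filter or at least 10 counts in every library, limma 3.58.1 on log2(TPM + 1) or log2(TPM + 0.1) (genes reaching 1 TPM in 2 libraries) or on log2(TPM + 1) without a filter, and leaving out each library. Plots were drawn with matplotlib 3.10.9.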

Additional observations from a re-analysis of the deposited data

How the results depend on the processing

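The log2 fold change of Slc2a5, on which the genes were chosen, was 1.94 to 2.09 over the 12 alternatives that used all libraries. No member was called with limma on log2(TPM + 0.1) or on log2(TPM + 1) without a filter, that is 0 members. Against 101 genes higher and 253 lower, there were 200 and 526 with the exact test, 214 and 559 with the likelihood-ratio test, 50 and 108 without a filter on low counts, 30 and 41 with limma on log2(TPM + 1), 11 and 16 on log2(TPM + 0.1), and 2 and 0 on log2(TPM + 1) without a filter, where 3960 genes had an unadjusted p under 0.05. Pathway genes called were 2 with the exact test, the likelihood-ratio test and DESeq2, where Slc5a4b joined Txnip, and 0 in the 3 TPM fits, where the adjusted p of Txnip was 0.0732, 0.0808 and 0.314. Leaving out each library gave 115 to 230 genes higher, 166 to 661 lower, 1 to 2 members called and 1 to 3 pathway genes called. The highest counts came without control replicate 2 (230 higher, 661 lower, Lct called beside Slc2a5, and Slc5a4b and Slc5a11 beside Txnip), while without mimic replicate 4 there were 384 lower, and G6pc and Slc5a4b were called beside Txnip. There, the lone library of a group is assumed to vary like the other group. The fits of the enterocyte and proximal markers without control replicate 2 were chosen after seeing the data. The cause of these shifts was not tested. No paired analysis was possible because the 2 groups share no replicate numbers. Slc2a1 and Mgam reads are in part divided among transcripts, and genes with few counts, such as Slc5a4b, are limited by depth.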
